A study of Mus musculus with 6 samples.

Results

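The 40 genes described here build cholesterol and fatty acids or control these pathways in the mouse pituitary. They were chosen by name from the SREBP, cholesterol, fatty acid and LXR pathways, with earlier results of these data known. Every non-control probe whose RefSeq accession belonged to one of them was taken. All 40 had a probe on the array (57 probes, of which 54 were kept), and all 40 were among the 26887 genes and features tested. They fall into 18 sterol synthesis enzymes, 6 genes of sterol control and transport, 11 fatty acid synthesis genes and 5 genes of LXR and efflux. RNA came from whole pituitaries of 3 Jmjd2a-/- females (KO) and 3 Jmjd2a+/+ littermates (WT), 1 animal per one-colour Agilent array. All 6 were virgin C57BL6 mice, 8 weeks old, killed 24 h after exposure to soiled bedding of a stud male, which activates the oestrus cycle (the Whitten effect). The current name of Jmjd2a is Kdm4a, and its protein removes methyl groups from histones. The labels describe the mutants as null without giving the allele, so every cell type of the gland and the rest of the animal may lack the gene. In whole glands, fewer cells of a type and less RNA per cell cannot be told apart.

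Cells make cholesterol from acetyl-CoA through mevalonate, isoprenoids, squalene and lanosterol. SREBP proteins are made as membrane precursors that SCAP carries from the endoplasmic reticulum to the Golgi when sterols are scarce. There they are cleaved and release the active transcription factor, while INSIG proteins hold SCAP back when sterols are plentiful. SREBP2 mainly drives sterol genes, and SREBP1c mainly drives fatty acid genes. LXR receptors bind oxidised sterols and turn on efflux pumps such as ABCA1. In the pituitary, membrane lipid is needed for secretory granules and for cell division.

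The region before the transcription start is where NF-Y and SREBP are known to act on sterol genes. The 250 bases upstream of the start are shown for 3 enzymes and a control gene with lower readings in KO, and for Abca1, which read higher and holds neither motif. Sequences come from the RefSeq annotation of mouse build GRCm38.p6 and read in the direction of the gene. Capitals mark CCAAT, the core of an NF-Y site, which appears as ATTGG where it lies on the other strand, and TCACNCCAC, a sterol regulatory element core. The windows are chr13:119690101-119690350 (plus strand) for Hmgcs1, chr13:8885356-8885605 (plus) for Idi1, chr1:169969206-169969455 (minus) for Hsd17b7, chr5:28071162-28071411 (plus) for Insig1 and chr4:53159896-53160145 (minus) for Abca1.
Hmgcs1: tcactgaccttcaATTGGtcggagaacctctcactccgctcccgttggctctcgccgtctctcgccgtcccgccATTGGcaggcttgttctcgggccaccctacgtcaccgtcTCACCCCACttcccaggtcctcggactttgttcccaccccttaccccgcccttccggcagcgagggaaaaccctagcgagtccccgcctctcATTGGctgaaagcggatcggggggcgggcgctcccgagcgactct
Idi1: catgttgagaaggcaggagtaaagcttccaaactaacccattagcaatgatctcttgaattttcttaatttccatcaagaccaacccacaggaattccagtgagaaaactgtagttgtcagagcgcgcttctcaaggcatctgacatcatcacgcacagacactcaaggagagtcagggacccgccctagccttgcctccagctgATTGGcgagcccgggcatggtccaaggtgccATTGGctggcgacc
Hsd17b7: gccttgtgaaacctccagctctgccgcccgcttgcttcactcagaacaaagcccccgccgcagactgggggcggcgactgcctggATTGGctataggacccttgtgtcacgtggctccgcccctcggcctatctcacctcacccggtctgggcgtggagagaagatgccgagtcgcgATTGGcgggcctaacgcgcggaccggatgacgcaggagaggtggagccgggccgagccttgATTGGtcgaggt
Insig1: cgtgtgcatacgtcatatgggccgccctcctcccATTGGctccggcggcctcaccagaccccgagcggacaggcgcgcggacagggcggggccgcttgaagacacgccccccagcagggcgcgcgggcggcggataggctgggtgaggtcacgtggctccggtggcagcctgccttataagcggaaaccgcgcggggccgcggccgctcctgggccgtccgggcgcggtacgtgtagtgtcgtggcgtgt
Abca1: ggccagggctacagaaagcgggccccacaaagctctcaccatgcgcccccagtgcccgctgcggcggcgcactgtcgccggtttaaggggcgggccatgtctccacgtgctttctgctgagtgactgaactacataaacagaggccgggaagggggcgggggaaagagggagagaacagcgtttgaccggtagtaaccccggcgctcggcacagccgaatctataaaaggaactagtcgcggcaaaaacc

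Hmgcs1 held 3 CCAAT matches and 1 sterol element, Idi1 held 2 CCAAT matches, Hsd17b7 held 3 and Insig1 held 1. The 2 kinds of motif did not overlap in the Hmgcs1 window, where the sterol element began 137 bases before the start and the nearest CCAAT match began 176 bases before it. Both strands were searched for these exact letters. Of the 18 sterol synthesis enzymes 15 were in the promoter table, and 14 of these held CCAAT (93.3%), against 37.5% of 27025 genes and 33.8% of 32851 promoters of this length. CCAAT stood before 4 of 5 control genes, 4 of 8 fatty acid genes and 1 of 4 LXR and efflux genes in the table. It also stood before genes with a log2 fold change above 0, among them Cyp51, Pmvk, Fasn and Mylip. The windows printed above are examples and do not show that the motif goes with the direction. The sterol element letters stood before Hmgcs1 alone among these genes, against 1.05% of promoters. A match is a description of letters, not a bound site.

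Levels below are log2 values relative to the 75th percentile of the same array, log2 fold changes are KO minus WT with the standard error (SE) of a limma fit across all 26887 genes and features, and n = 3 arrays per group. They compare arrays within a probe, never one gene with another. No gene or feature passed an adjusted p under 0.05 (0%), while 3445 had an unadjusted p under 0.05 and the lowest adjusted p was 0.0774. Of those 3445, 69.6% were lower in KO, a share that was 42.9% after quantile normalization, 24.8% after median centring, 46.8% with the log2 values of the authors and 79.5% without the filter on dim probes. Single genes are therefore given as values, and counts at an unadjusted p are read beside the same share over all genes. Over all genes the median was -0.08. The 40 probes used were all well above background on all 6 arrays and none was saturated. Kdm4a itself read 2.14, 1.90 and 1.85 in WT and 1.45, 1.20 and 1.36 in KO, with a log2 fold change of -0.62 ± 0.14 (adjusted p = 0.237, limma). The groups did not overlap, and since the labels do not say which part of the gene is missing, the probe is only a limited check of the genotypes. All 13 pituitary markers were tested, from the hormone genes Gh, Prl and Pomc to the lineage factors Pou1f1 and Pitx1, with a median log2 fold change of -0.16. WT replicate 3 stood apart: the summed linear level of 8 tested cell division markers was 13.8 there, 3.19 and 4.38 in WT replicates 1 and 2, and 1.23 to 1.88 in KO. For 8 tested neutrophil markers the sum was 18.9 there, 6.53 and 8.16 in WT replicates 1 and 2, and 5.04 to 5.07 in KO. Where a value is also given without this array, the fit was repeated with it left out.

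Most sterol synthesis enzymes read lower in KO pituitaries. Of the 18, 16 had a log2 fold change below 0 and 15 lay below the median of all genes. Their median was -0.28, with a range from -0.70 to 0.20. At an unadjusted p under 0.05, 6 of 18 were lower (33.3%), against 8.92% of all genes, and 0 were higher, against 3.89%. In 11 of 18 every KO array lay below every WT array (61.1%), against 13.5% of all genes. None lay wholly above, against 7.14%. No enzyme passed the adjusted threshold. Because the genes were chosen with earlier results of these data known, these shares describe the list and are not an independent test. The plot of fold changes by gene shows the enzymes left of the line for all genes, apart from Pmvk, Fdft1 and Cyp51.

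**Figure D1:**
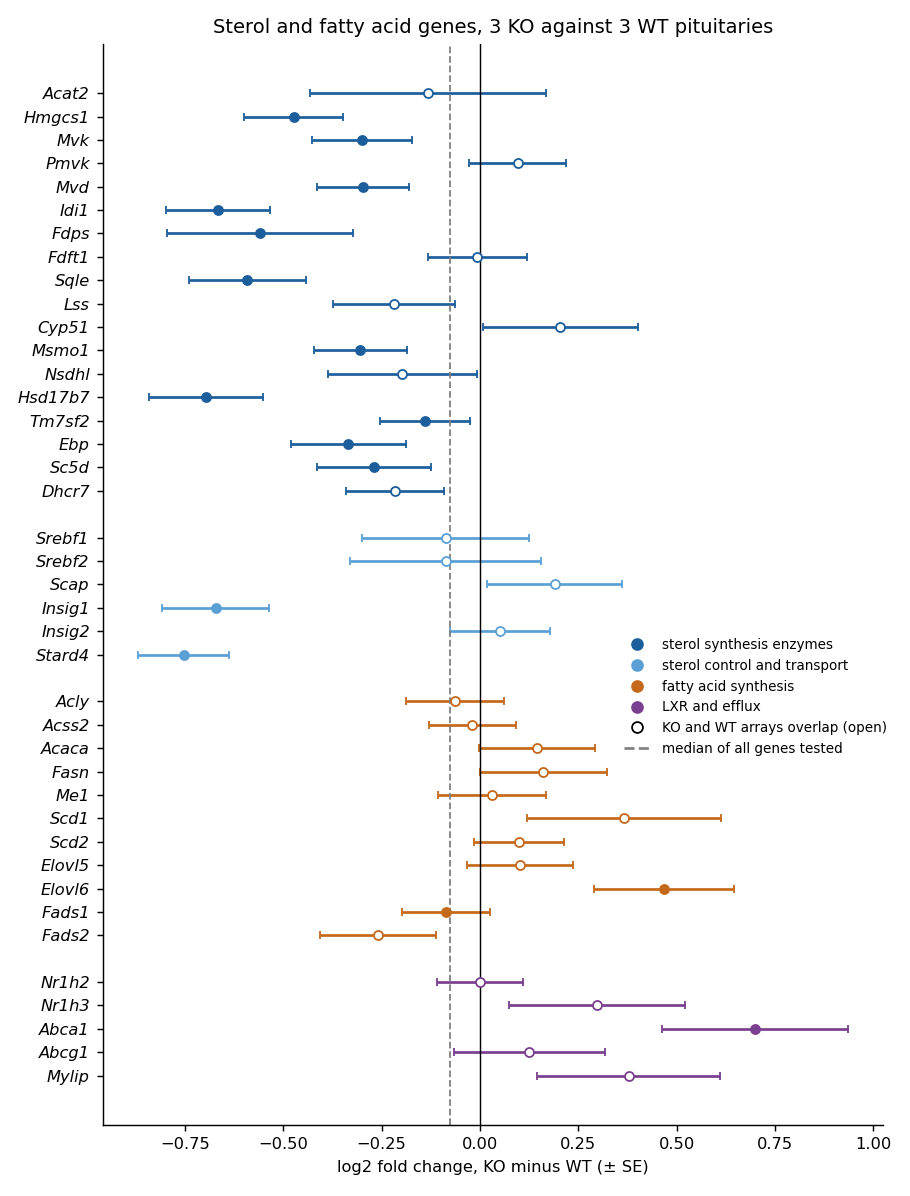
Log2 fold change of each of the 40 genes, KO minus WT, with its SE on the x axis and genes grouped by role; filled points are genes whose 3 KO and 3 WT arrays do not overlap, and the dashed line is the median of all genes tested (-0.08). The 6 most negative points lie between -0.75 and -0.56 and are Stard4, Hsd17b7, Insig1, Idi1, Sqle and Fdps, while Abca1 (0.70) and Elovl6 (0.47) are the most positive.

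The pathway opens with Acat2, which joins acetyl-CoA units, and Hmgcs1, which makes HMG-CoA. Acat2 varied widely, with a log2 fold change of -0.13 ± 0.30 and overlapping groups. Hmgcs1 read 3.22, 3.18 and 3.41 in WT and 2.80, 2.88 and 2.71 in KO. All 3 KO arrays were below the lowest WT array, and the log2 fold change was -0.47 ± 0.13 (adjusted p = 0.293, limma), which puts KO at 72.0% of WT (95% interval 58.6 to 88.5).

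Mevalonate is phosphorylated by Mvk and Pmvk, decarboxylated by Mvd and isomerised by Idi1. Idi1 read 1.31, 1.47 and 1.54 in WT and 0.70, 0.92 and 0.69 in KO. The groups were separated by more than the spread within either, and the log2 fold change was -0.67 ± 0.13 (adjusted p = 0.226, limma), or 63.0% of WT (50.8 to 78.2). Mvk (-0.30 ± 0.13) and Mvd (-0.30 ± 0.12) also had every KO array below every WT array, and a second Mvk probe gave -0.32 ± 0.12. Pmvk lay between them in the pathway and gave 0.10 ± 0.12, with overlapping arrays and 0.16 ± 0.13 on its second probe. The isoprenoid and squalene steps were unequal. Fdps, which builds farnesyl diphosphate, read 2.93, 3.23 and 3.86 in WT and 2.71, 2.88 and 2.74 in KO. WT replicate 3 was far above the other arrays, the groups did not overlap, and the log2 fold change was -0.56 ± 0.24 with that array and -0.30 without it. Fdft1, squalene synthase, gave -0.01 ± 0.13 with overlapping groups, and its other probe was well above background on 1 array and was not kept.

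Sqle, the squalene epoxidase that is a second control point of the pathway, read 3.01, 3.02 and 3.34 in WT and 2.56, 2.66 and 2.38 in KO. Every KO array was below every WT array, and the log2 fold change was -0.59 ± 0.15 (adjusted p = 0.276, limma), or 66.3% of WT (52.0 to 84.6). Lss, which closes squalene epoxide into lanosterol, gave -0.22 ± 0.16 with overlapping groups, and -0.13 without WT replicate 3. Cyp51, which removes a methyl group from lanosterol, was the enzyme with the highest value, 0.20 ± 0.20. Its arrays overlapped widely, and after normexp background correction the value was 0.00.

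Msmo1, Nsdhl and Hsd17b7 act together to remove the methyl groups next to the sterol hydroxyl. Hsd17b7 read -2.59, -2.33 and -2.27 in WT and -3.01, -3.01 and -3.26 in KO. The highest KO array was below the lowest WT array, and the log2 fold change was -0.70 ± 0.15 (adjusted p = 0.229, limma), or 61.7% of WT (48.6 to 78.3). Its second probe gave -0.69 ± 0.19. The same gene gave -0.26 in the authors' value table, so its size depended on which values were used. Msmo1 gave -0.30 ± 0.12, without overlap. The 2 probes of Nsdhl disagreed in size, at -0.20 ± 0.19 on the brighter and -1.05 ± 0.33 on the dimmer, which had an unadjusted p of 0.0151 in the fit over all probes.

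The last steps rearrange and reduce the sterol ring. Ebp, the isomerase, gave -0.34 ± 0.15 and Sc5d, the desaturase, gave -0.27 ± 0.15, both with every KO array below every WT array. Without WT replicate 3 they gave -0.21 and -0.15. Tm7sf2, a sterol reductase, gave -0.14 ± 0.12 without overlap, and -0.05 ± 0.15 on its second probe. Dhcr7, which completes cholesterol, gave -0.22 ± 0.13 with 1 KO array inside the WT range.

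The genes that sense and move sterol were split. Of 6, 2 were lower at an unadjusted p under 0.05 (8.92% of all genes) and 0 were higher (3.89% of all genes), and the median was -0.09. The median turned to 0.01 without WT replicate 3, where Srebf1 read high. Stard4, a cytosolic protein that shuttles cholesterol between membranes, read 0.67, 0.67 and 0.80 in WT and 0.02, -0.03 and -0.12 in KO. No other gene of the 40 had a smaller p: the groups were separated by several times the spread within either, and the log2 fold change was -0.75 ± 0.12 (adjusted p = 0.185, limma), or 59.3% of WT (49.0 to 71.7). With the authors' value table its log2 fold change was -0.66 with an adjusted p of 0.0477 (limma). Over the 17 alternatives its adjusted p ran from 0.0477 to 0.580, and that table was the only one under 0.05. Its second probe was well above background on 1 array and was not kept.

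Insig1, which retains SCAP and is itself switched on by SREBP, read -0.79, -1.11 and -0.94 in WT and -1.61, -1.52 and -1.73 in KO. All KO arrays were below all WT arrays, and the log2 fold change was -0.67 ± 0.14 (adjusted p = 0.226, limma), or 62.8% of WT (50.2 to 78.5). Insig2, a relative that is known to be controlled differently, gave 0.05 ± 0.13, and -0.10 ± 0.12 on its second probe, with overlapping groups on the first. The transcripts of the factors themselves differed by less than the spread between arrays. Srebf2 gave -0.09 ± 0.24 and Srebf1 gave -0.09 ± 0.21, and without WT replicate 3 both signs turned, to 0.02 and 0.15. Scap, the escort protein, gave 0.19 ± 0.17. All 3 had overlapping arrays, and their 95% intervals still allow changes of -0.66 to 0.49 for Srebf2, -0.59 to 0.41 for Srebf1 and -0.22 to 0.60 for Scap. The probe for Srebf1 is not known here to tell its isoforms apart.

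**Figure D2:**
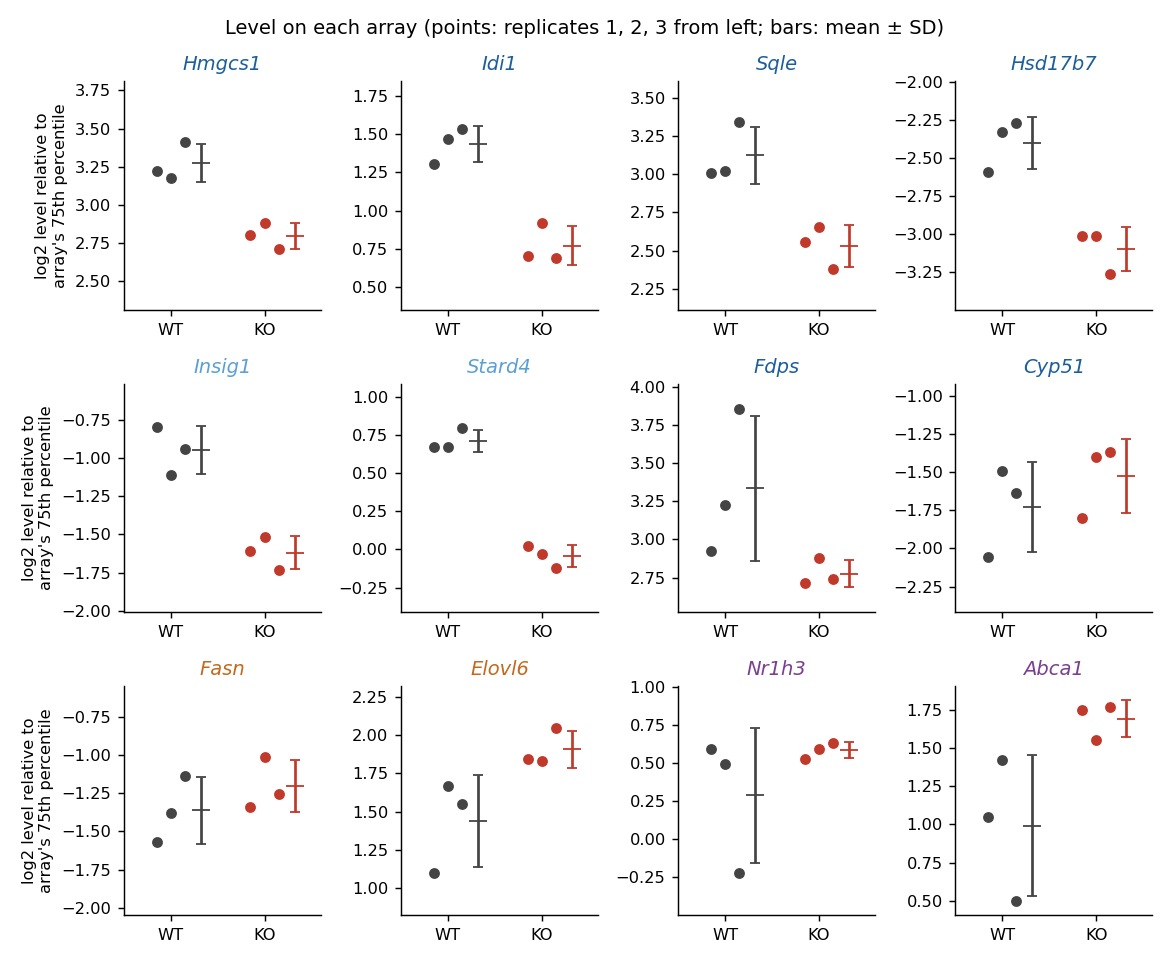
Level of 12 of the 40 genes on each array, in log2 relative to the array's 75th percentile; grey points are WT and red points KO replicates 1, 2 and 3 from left, with the mean and SD beside them, and each panel spans its own range. Hmgcs1, Idi1, Sqle, Hsd17b7, Insig1 and Stard4 show separate groups, Fdps, Nr1h3 and Abca1 show a WT replicate 3 far from the other WT arrays, and Cyp51 and Fasn overlap.

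Most fatty acid genes read near or above the median of all genes. Of 11 genes, 7 had a log2 fold change above 0 and 9 lay above the median of all genes. Their median was 0.10. At an unadjusted p under 0.05, 0 were lower, against 8.92% of all genes, and 1 was higher (9.09%), against 3.89%. The enzymes from acetyl-CoA supply to the synthase all had overlapping groups. Acly, which makes cytosolic acetyl-CoA, gave -0.06 ± 0.13, and Acss2, which makes it from acetate, gave -0.02 ± 0.11. Acaca, the carboxylase, gave 0.15 ± 0.15, Fasn, the synthase, 0.16 ± 0.16, and Me1, which supplies NADPH, 0.03 ± 0.14. Without WT replicate 3 these were 0.28 for Acaca, 0.27 for Fasn and 0.14 for Me1. Dimmer second probes gave -0.28 ± 0.18 for Acly and -0.18 ± 0.21 for Acaca, on the other side of 0 for Acaca.

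Elovl6, which lengthens saturated fatty acids, read 1.098, 1.67 and 1.55 in WT and 1.85, 1.83 and 2.05 in KO. All KO arrays were above all WT arrays, with WT replicate 1 the lowest. The log2 fold change was 0.47 ± 0.18 (adjusted p = 0.364, limma) and 0.30 without that array. Elovl5, which lengthens polyunsaturated chains, gave 0.10 ± 0.14. Of the desaturases, Scd1 gave 0.37 ± 0.25 with a WT spread of 0.49 (SD), or 0.15 without WT replicate 1, and Scd2 gave 0.10 ± 0.12. Fads1 gave -0.09 ± 0.11, with every KO array below every WT array by a small margin, and Fads2 gave -0.26 ± 0.15, with overlap. Both act on polyunsaturated fatty acids.

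The LXR and efflux genes all had values above 0, and this rested partly on 1 array. The median of the 5 was 0.30, and 0.04 without WT replicate 3. At an unadjusted p under 0.05, 1 was higher with that array and 1 without it. Of all genes, 3.89% were higher with it and 2.98% without it. Abca1, the pump that loads cholesterol onto apolipoproteins, read 1.05, 1.42 and 0.50 in WT and 1.75, 1.55 and 1.77 in KO. The 3 KO arrays were above the 3 WT arrays, and the log2 fold change was 0.70 ± 0.24 (adjusted p = 0.344, limma), or 0.45 without WT replicate 3. Nr1h3 (LXR alpha) read 0.59, 0.50 and -0.22 in WT and 0.53, 0.60 and 0.63 in KO. Only WT replicate 3 was low, and the log2 fold change of 0.30 ± 0.22 became 0.04 without it. Mylip, a ubiquitin ligase switched on by LXR, gave 0.38 ± 0.23, then 0.14 without that array, and 0.10 ± 0.22 on its dimmer probe. Abcg1, a pump for export to HDL, gave 0.13 ± 0.19, which turned to -0.02 without it, and Nr1h2 (LXR beta) gave 0.00 ± 0.11.

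Set side by side, the sterol enzymes and the fatty acid genes lay on opposite sides of the median of all genes. The median of the enzymes minus that of the fatty acid genes was -0.38. It ran from -0.41 to -0.28 over the alternatives. The difference has no test, since genes of a pathway are not replicates. Averaged over the 18 enzymes as a deviation from each gene's own mean, the WT arrays stood at 0.05, 0.09 and 0.28 and the KO arrays at -0.20, -0.06 and -0.17. The same mean over all 26887 genes and features stood at 0.05, 0.08 and 0.00 in WT and at -0.02, -0.06 and -0.07 in KO, so KO lay below WT there too. The enzymes stood apart from all genes mainly in WT replicate 3, KO replicate 1 and KO replicate 3, and lay close to them on the other arrays. WT replicate 3 was the highest of the 6 arrays for 13 of the 18 enzymes. Without it the enzyme median was -0.19, against -0.08 over all genes, and 15 of 18 were below 0. In that fit 4 of 18 were lower at an unadjusted p under 0.05, against 9.14% of all genes. For the 11 fatty acid genes the WT arrays stood at -0.15, -0.01 and 0.03 and the KO arrays at 0.03, 0.05 and 0.04, so KO was hardly above WT replicate 3. For the 5 LXR and efflux genes WT replicate 3 stood at -0.51, replicates 1 and 2 stood at 0.04 and 0.02, and the KO arrays stood between 0.07 and 0.22.

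**Figure D3:**
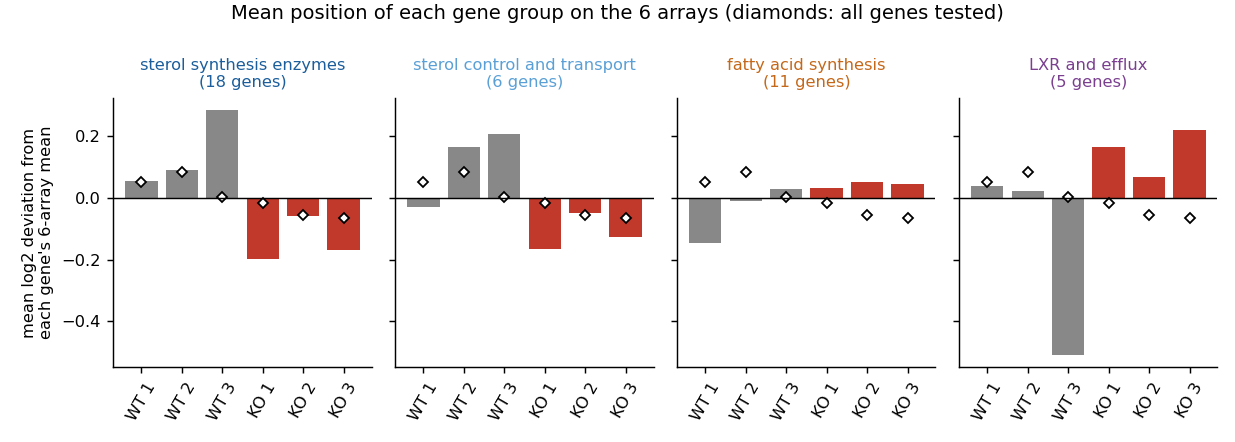
Mean log2 deviation of each gene group from its genes' means over 6 arrays, by array (grey WT, red KO), with the same mean over all genes tested as diamonds. The sterol enzymes lie above the all-gene mark in WT replicate 3 (0.28 against 0.00) and below it in KO replicates 1 and 3 (-0.20 against -0.02 and -0.17 against -0.07); the LXR and efflux group is set apart mostly by WT replicate 3 at -0.51.

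Markers of cell division, neutrophils and Schwann cells were also highest in WT replicate 3. All 8 tested cell division markers of 10 (Bub1 and Aurkb were not tested) had values below 0 in KO, and 6 of them were lower at an unadjusted p under 0.05, against 8.92% of all genes. Without WT replicate 3 all 8 stayed below 0, with a median of -1.11. Of these, 6 were lower at an unadjusted p under 0.05, against 9.14% of all genes. Their mean deviation was 2.04 in WT replicate 3, 0.03 and 0.47 in WT replicates 1 and 2, and -0.66, -1.26 and -0.62 in KO. The tested neutrophil markers, 8 of 9 without Retnlg, stood at 1.87 in WT replicate 3 and between -0.72 and -0.04 on the other arrays. The 11 tested Schwann cell and oligodendrocyte markers of 12 (without Pmp2) had summed levels of 15.3 to 24.3 in WT and 16.0 to 17.0 in KO. The highest sum was in WT replicate 3. Of the 11, 9 had values below 0 and 2 above, with a median of -0.31. At an unadjusted p under 0.05, 2 were lower (18.2%, against 8.92% of all genes) and 0 higher (against 3.89%). In 4 every KO array lay below every WT array (36.4%, against 13.5%). Without WT replicate 3 the median was 0.04, 5 were below 0, and 0 were lower, against 9.14%. Adipocyte markers were sought because fat cells are rich in lipid synthesis. Of 8, the defining Adipoq and Cfd were not well above background on enough arrays to be tested. The other 6 had summed levels of 2.06 to 3.86 in WT and 2.26 to 2.53 in KO. All 6 had values below 0, with a median of -0.32. At an unadjusted p under 0.05, 0 of these were lower, against 8.92% of all genes. Without WT replicate 3 all 6 stayed below 0, with a median of -0.29. Macrophage markers (9 of 10, with no probe for Cd68) summed to 22.5 to 28.5 in WT and 23.1 to 26.6 in KO. Of the 9, 5 had values above 0 and 4 below, with a median of 0.11. At an unadjusted p under 0.05, 2 were higher (22.2%), against 3.89% of all genes. Without WT replicate 3, 0 were higher, against 2.98%. The 2 were Lyz2 (0.76 ± 0.26) and Mrc1 (0.60 ± 0.19), both without overlap. The 4 below 0 were Csf1r (-0.09), Adgre1 (-0.10), Cx3cr1 (-0.27) and Cd14 (-0.03). Lyz2 and Mrc1 gave 0.30 and 0.14 after normexp correction. The 10 posterior lobe markers summed to 21.2 to 27.4 in WT and 22.7 to 25.3 in KO. They went both ways, with 7 below 0, 3 above and a median of -0.18. At an unadjusted p under 0.05, 1 was lower (10%, against 8.92% of all genes) and 1 higher (10%, against 3.89%). The lower one was Avp (-1.21 ± 0.35) and the higher one Rax (0.53 ± 0.17), both without overlap. The part of any of these cells in the lipid results was not tested.

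Genes of the same pathways outside the 40, taken from 5 wider lists, gave a mixed picture. Of 97, 93 were tested (Lcat, Elovl3, Abcg5 and Abcg8 were not), 7 were lower at an unadjusted p under 0.05 (7.53%, against 8.92% of all genes), and 4 were higher (4.30%, against 3.89%). Their median was -0.02. Among 14 other genes of sterol synthesis and its supply, 3 were lower at an unadjusted p under 0.05 (21.4%, against 8.92% of all genes). In the same list 1 was higher (7.14%, against 3.89%), and the median was -0.15. The lower ones included Acat1, the mitochondrial thiolase of ketone bodies, at -0.69 ± 0.16, and Lbr, a lamin receptor with sterol reductase activity, at -0.43 ± 0.13. Both were without overlap. The higher one was Cyb5r3, which supplies electrons to desaturases, at 0.44 ± 0.18, named after its value was seen.

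Further genes act with SREBP on sterol promoters or on its control. Nfya, the subunit of NF-Y that contacts CCAAT, read -2.65, -1.70 and -2.22 in WT and -1.24, -1.25 and -1.05 in KO. All KO arrays were above all WT arrays, with a log2 fold change of 1.01 ± 0.24, and of 0.42 after normexp correction. Its partners Nfyb and Nfyc gave -0.05 ± 0.11 and -0.18 ± 0.14, named after their values were seen. Erlin1, an endoplasmic reticulum protein that takes part in sterol-linked protein degradation, gave 0.42 ± 0.12 without overlap. Of the 16 genes of this list 2 were higher at an unadjusted p under 0.05, Nfya and Erlin1 (12.5%, against 3.89% of all genes). In the other direction 1 was lower (6.25%, against 8.92%), and the median was -0.02.

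In sterol transport and lipoprotein genes, 1 of 19 was lower at an unadjusted p under 0.05 (5.26%, against 8.92% of all genes). Also 1 was higher (5.26%, against 3.89%), and the median was 0.08. Apoe, the apolipoprotein that accepts cholesterol from ABCA1, read 4.53, 4.94 and 4.47 in WT and 5.32, 5.52 and 5.71 in KO. All KO arrays were higher, with a log2 fold change of 0.87 ± 0.18 (adjusted p = 0.226, limma) and of 0.78 without WT replicate 3. Gramd1a, which moves plasma membrane cholesterol to the endoplasmic reticulum, gave -0.43 ± 0.13, and Stard3, a late endosomal cholesterol carrier, gave 0.30 ± 0.14, both without overlap. Among 31 further fatty acid and glycerolipid genes, 1 was lower (3.23%, against 8.92%) and 0 were higher (against 3.89%). The median was -0.02. The lower one was Fads3, a desaturase of sphingoid bases, at -0.51 ± 0.12, and it gave -0.29 in the authors' value table. Agpat1, an acyltransferase of phospholipid synthesis, gave -0.33 ± 0.15, and Lpin1, a phosphatidate phosphatase, gave 0.45 ± 0.21, or 0.24 without WT replicate 3.

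The 13 further LXR-related genes had a median of -0.07. At an unadjusted p under 0.05, 1 was lower (7.69%, against 8.92% of all genes) and 0 were higher (against 3.89%). Ch25h, which makes an oxysterol that blocks SREBP processing, read -3.39, -2.84 and -3.33 in WT and -4.19, -4.91 and -4.24 in KO. The groups did not overlap and the log2 fold change was -1.26 ± 0.25 (adjusted p = 0.226, limma). The probe was dim, well above background on 3 WT and 2 KO arrays, and normexp correction reduced the value to -0.41. Cyp27a1, a further oxysterol enzyme, gave 0.35 ± 0.19, or 0.21 without WT replicate 3 and -0.05 after normexp correction, and Abca7, a relative of Abca1, gave -0.24 ± 0.14.

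The position of each arm against all genes was recomputed under other settings. The median of the sterol enzymes was below that of all genes in the main analysis and in all 17 alternatives, with differences of -0.29 to -0.09, and 13 to 16 of the 18 enzymes were below it. The fatty acid median was above that of all genes in each, by 0.06 to 0.25. Of the 40 genes, only Stard4 was called in any of them. No gene with an unadjusted p under 0.05 in the main analysis or in the alternative changed sign between them.

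**Figure D4:**
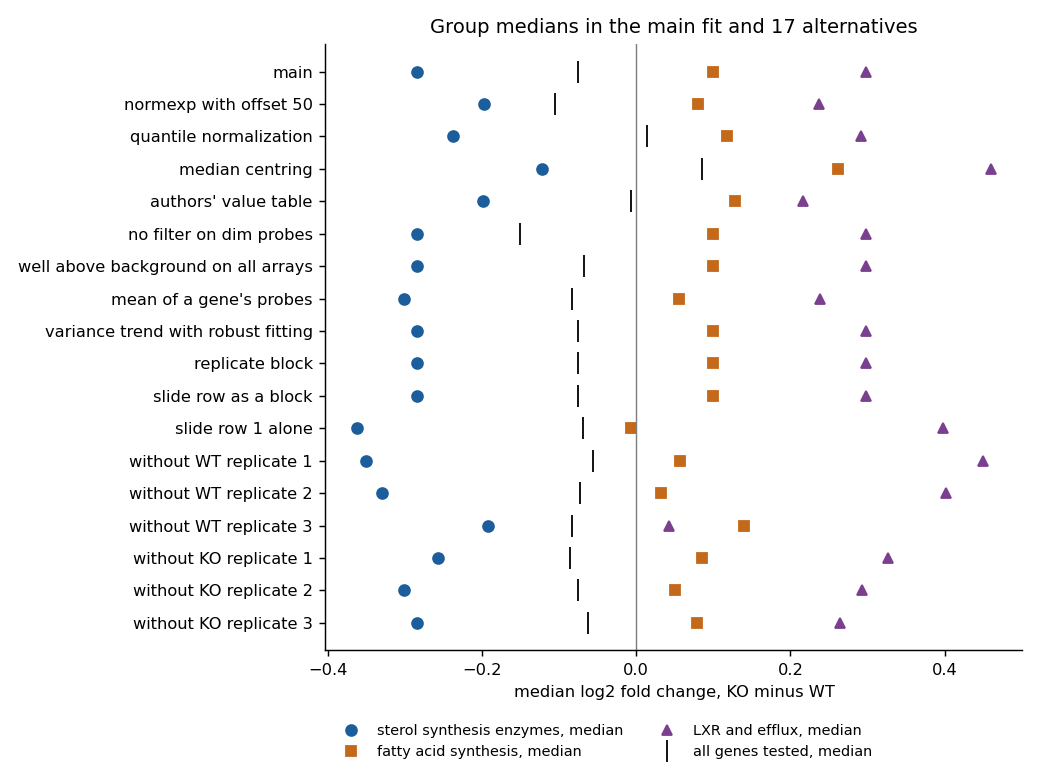
Median log2 fold change of the sterol enzymes, the fatty acid genes, the LXR and efflux genes and all genes tested, in the main analysis and 17 alternatives. The sterol median lies left of the all-gene mark and the fatty acid median right of it in every line; the LXR median drops from 0.30 to 0.04 without WT replicate 3.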

How the data were processed

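The 40 genes and all lists were chosen with earlier results of these data known. Total pituitary RNA of 6 mice was labelled with Cy3 and hybridised to 6 arrays of 1 slide, per the labels and the file headers. The deposited spot files hold intensity values that Agilent Feature Extraction 11.0.1.1 had background-subtracted and detrended, per the file headers, without normalization between arrays. A deposited table of log2 values by the authors covers 29154 spots, with column medians of 8.25 to 8.26. Each column correlated at 0.997 or more with the log2 median signal of its array. The submitters' processing notes name limma, with no normalization given in the sources used here.

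Control and outlier spots were left out, log2 signals were averaged per probe, and the 75th percentile of each array was taken off. A probe was kept if it lay well above background on 3 or more of 6 arrays (36739 of 55681), and the brightest probe stood for a gene. Array depth is seen in the 34634 to 40567 probes well above background per array, and 3 arrays per group limit the precision. Accessions were matched to symbols through the RefSeq annotation of GRCm38.p6 (27656 probes, 20972 symbols). KO and WT were compared with limma 3.58.1 in R 4.3.3 (lmFit and eBayes, two-sided, Benjamini-Hochberg over 26887 genes and features, data.table, version 1.17.8), and the steps were tested on simulated data. The text names all 40 genes, and of each wider list up to 3 genes with the smallest p. Some genes that the rule takes are not reported here. Replicate numbers were not treated as pairs in the main analysis. Deviations of same-numbered arrays correlated at 0.15, -0.18 and -0.08, and those of differently numbered arrays at -0.14 to 0.21. With 3 arrays per group these values cannot decide whether the animals were paired. Alternatives changed the background correction, scaling, filter, probe rule, variance model, blocks (replicate number, slide row) and arrays used.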

Additional observations from a re-analysis of the deposited data

How the results depend on the processing

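The directions of the 40 genes were compared over 17 alternatives. Of the values, 672 kept their direction or stayed within 1 SD and on the same side of the threshold, 7 moved, and Stard4 passed the threshold in the authors' value table (-0.66). The moved values, near 0 in the main analysis, were those of Fdft1, Tm7sf2, Acss2 and Fads1 with median centring and of Acly with 3 scalings (median centring, quantile normalization, the authors' table). Median centring shifted the median of all genes from -0.08 to 0.09. The number of genes and features called at an adjusted p under 0.05, 0 in the main analysis, was 24 with normexp, 16 with median centring, 27 with the authors' log2 values, 11 with the filter asking for all arrays and 27 with a variance trend and robust fitting, and it ran from 0 to 1 when 1 array was left out. The 2399 lower at an unadjusted p under 0.05 became 1368 with quantile normalization, 890 with median centring and 1398 with the authors' log2 values, and ran from 1426 to 3445 without 1 array. The 1046 higher became 1819, 2692 and 1587, and ran from 543 to 2063. Median centring left 4 of the 40 lower, where the main analysis had 8, and 4 higher, where it had 2. Of all genes, 3.31% were lower and 10.01% higher with median centring, against 8.92% and 3.89% in the main analysis. The count of the 40 that were higher ran from 0 to 4 without 1 array and that of the lower from 6 to 11. Without 1 array the shares of all genes ran from 2.02% to 7.67% higher and from 5.30% to 12.8% lower. Median centring moved the median of the sterol enzymes to -0.12, turned that of the control genes to 0.075 and moved that of the fatty acid genes to 0.26. The control median ran from -0.27 to 0.0094 without 1 array and turned without WT replicate 3. The fatty acid median was -0.0073 in slide row 1 alone and ran from 0.032 to 0.14 without 1 array. The LXR and efflux median ran from 0.043 to 0.45, and normexp moved the enzyme minus fatty acid difference to -0.28. Slide row 2 alone, 1 array per group and chosen after seeing the data, gave medians of -0.19 for the enzymes and 0.13 for the fatty acid genes. With the replicate number as a block the medians were -0.28 and 0.10, since the block leaves fold changes as they were, and the lowest adjusted p of the 40 genes was 0.422. With slide row as a block it was 0.313. The cause of these changes was not tested. The Ch25h probe was dim, while all 40 probes used here lay well above background on every array. Values of the 40 still moved with the processing. Cyp51 went from 0.20 to -0.0016 with normexp, and Hsd17b7 from -0.70 to -0.26 in the authors' table. The enzyme median minus that of all genes went from -0.21 to -0.09 with normexp.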
